A study of Homo sapiens with 6 samples.

Results

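The HOX genes encode homeodomain transcription factors, which lie in the human genome in 4 clusters. A HOX gene was taken as any protein-coding gene whose current symbol is HOXA, HOXB, HOXC or HOXD followed by digits. All 39 such genes were among the 57500 Ensembl gene identifiers of the table: 11 in HOXA on chromosome 7, 10 in HOXB on chromosome 17, 9 in HOXC on chromosome 12 and 9 in HOXD on chromosome 2. Within a cluster the genes are numbered by paralog group, so that HOXA11, HOXC11 and HOXD11 descend from the same ancestral gene. Low-numbered genes lie at the 3′ end of a cluster and are used in the embryo near the head, and high-numbered genes lie at the 5′ end and are used towards the tail and the tips of the limbs. Polycomb complexes keep unused HOX genes silent, MLL complexes keep active ones on, and cell lines commonly retain a fixed subset of active positions. In the mouse kidney, the paralogs of group 11 are needed together for the metanephric kidney to form.

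Polyadenylated RNA was sequenced from HEK293T cells, a cell line of human embryonic kidney origin that carries the SV40 large T antigen and takes up plasmids easily. The 3 PRMT1 OV libraries came from cells transfected by means of PolyJet with a pcDNA3 plasmid carrying PRMT1, the main enzyme that adds asymmetric dimethyl marks to arginines of proteins. The 3 Mock libraries are labelled as vector control, and the labels do not say whether those cells received an empty plasmid. Both groups share the cell line, the wild-type genotype label and the medium. The comparison addresses how the transcriptome differs with an excess of PRMT1. The labels do not say that replicates were separate cultures, so the p-values reflect how much these libraries vary, which may be technical. In bulk RNA, fewer cells expressing a gene and less RNA per cell cannot be told apart.

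PRMT1 itself stood at 71656, 62895 and 84923 TPM in PRMT1 OV libraries 1 to 3, against 378, 397 and 368 TPM in Mock libraries 1 to 3, a 192-fold difference. TPM are transcript levels scaled to a sum of 1000000 per library, and PRMT1 alone took 6.29 to 8.49% of that sum in PRMT1 OV libraries against at most 0.0397% in Mock. Depth recovered from the values was 19859782 to 23161610 reads in PRMT1 OV libraries and 18184792 to 20409411 in Mock. A gene of 1 kb reached 3 reads at 0.459 to 0.526 TPM. In limma, run on log2(TPM + 1) for 15341 genes, 40.3% of genes were called higher and 8.64% lower at an adjusted p under 0.05. The median log2 fold change of all these genes was 0.30 in TPM, and 0.006 after median-of-ratios scaling. A HOX gene near 0.30 therefore moved with the bulk of genes. For that reason each call was repeated after 4 rescalings: median-of-ratios, quantile normalization, removal of PRMT1 from the total, and a correction for GC content. PRMT1 OV library 2 and Mock library 3 stood apart from the other libraries of their groups on the leading principal components. Of 6 epithelial markers, 4 were above 1 TPM and summed to 164 to 182 TPM in PRMT1 OV and 168 to 192 TPM in Mock. Of 8 markers of mature nephron, LRP2 alone was above 1 TPM, and the list summed to 4.52 to 5.75 TPM in PRMT1 OV and 3.22 to 4.77 TPM in Mock. The 8 kidney progenitor markers summed to 87.4 to 94.0 TPM in PRMT1 OV and 92.9 to 94.6 TPM in Mock, with PAX8 and OSR1 under 1 TPM. That sum covers opposite movements: of 6 tested, 3 were called higher and 1 lower (40.3% and 8.64% of all genes). Sums of 8 neuronal markers, 474 to 546 TPM in PRMT1 OV and 741 to 830 TPM in Mock, and of 6 mesenchymal markers, 437 to 526 TPM in PRMT1 OV and 652 to 679 TPM in Mock, were lower in PRMT1 OV. Of the neuronal markers MAP2 and SYT4 were under 1 TPM, and of the mesenchymal ones COL3A1, PDGFRB, THY1 and DCN. Among 6 tested neuronal markers 1 was called higher and 3 lower, and the 2 tested mesenchymal ones were called lower. The part of these differences in the HOX results was not tested. The 6 blood markers were each under 1 TPM and summed to at most 1.29 TPM in any library.

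HEK293T cells expressed genes from all 4 clusters. Of the 39 HOX genes, 32 reached 1 TPM in at least 3 of the 6 libraries and were tested, 22 averaged at least 10 TPM over the libraries and 3 averaged at least 50 TPM. Those 3 were HOXB9, HOXD13 and HOXA5, from the 5′ part of HOXB, the 5′ end of HOXD and the centre of HOXA. Paralog groups 9 to 13 supplied 66.7 ± 0.72% of all HOX TPM in PRMT1 OV and 65.9 ± 1.06% in Mock (SD, n = 3 each). Groups 5 to 8 supplied 23.7 ± 0.56% in PRMT1 OV and 24.5 ± 1.16% in Mock, and groups 1 to 4 supplied 9.59 ± 0.18% in PRMT1 OV and 9.63 ± 0.52% in Mock. The share from each stretch of the clusters thus differed between the groups by about the spread between libraries. Tested HOX genes had a median level of 15.5 TPM over the 6 libraries, against 13.9 TPM for the 12164 tested protein-coding genes.

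**Figure D1:**
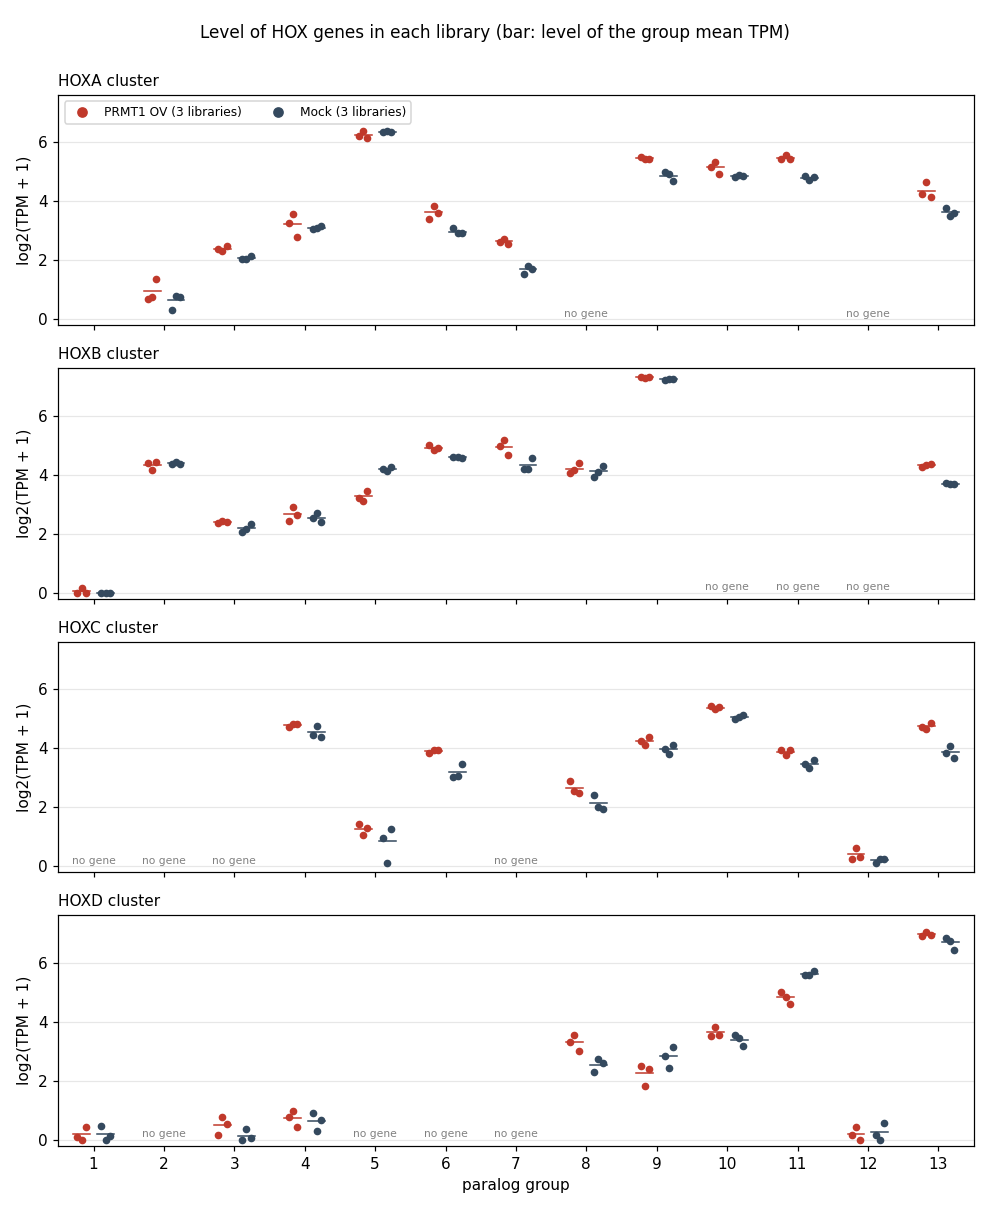
Level of 38 of the 39 HOX genes as log2(TPM + 1), by paralog group, in 1 panel per cluster; points are single libraries of PRMT1 OV (n = 3) and Mock (n = 3). HOXB9, HOXD13 and HOXA5 lie highest, and the genes of HOXD groups 1 to 4 lie near 0 in both groups.

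The 7 untested genes were HOXA2, HOXB1, HOXC12, HOXD1, HOXD3, HOXD4 and HOXD12. HOXA2, which patterns the hindbrain and branchial arches, reached 1.57 TPM in PRMT1 OV library 3 and was under 1 TPM in the other libraries. The other 6 were under 1 TPM in every library. HOXB1, a hindbrain gene, had 2 reads in PRMT1 OV library 2 and was listed at 0 in the remaining libraries. HOXD1, HOXD3 and HOXD4 gave 5, 28 and 19 reads over the 3 PRMT1 OV libraries and 6, 7 and 15 reads over the 3 Mock libraries. The 3′ part of the HOXD cluster was therefore near the detection limit in both groups, while HOXD13 at its 5′ end ranked among the 3 highest HOX genes. HOXC12 and HOXD12, the members of group 12, summed to 0.49 ± 0.36 TPM in PRMT1 OV and 0.38 ± 0.29 TPM in Mock, between the expressed groups 11 and 13.

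Set against all genes, the HOX genes moved in mixed directions. Of 32 tested HOX genes, 15 were called higher (46.9%, against 40.3% of all genes) and 2 lower (6.25%, against 8.64%), with a median log2 fold change of 0.32 against 0.30 for all genes. Calls in either direction covered 17 of 32 HOX genes and 49% of all genes. The HOX shares were thus near the background. After median-of-ratios scaling 7 HOX genes were called higher (21.9%, against 23.5% of all genes) and 6 lower (18.8%, against 24.1%). Quantile normalization gave 4 higher and 6 lower (20.3% and 19.4% of all genes), GC correction gave 8 and 6 (23.2% and 26.1% of all genes), and removal of PRMT1 gave 21 and 2 (49.1% and 5.68% of all genes). PRMT1 OV values all lay above Mock values for 21 of the 32 genes (65.6%, against 49.8% of all genes), and all below for 2 (6.25%, against 11.6%). A call that held in TPM and in each of the 4 rescalings was reached by 3 of the 32 genes in the higher direction, HOXA7, HOXA11 and HOXC13 (16.9% of all genes did so), and by 2 in the lower direction, HOXB5 and HOXD11 (5.23% of all genes). These 5 also kept their calls in every other alternative that could test them, including each library left out in turn. Leaving out both PRMT1 OV 2 and Mock 3 gave 15 of the 32 higher and 3 lower, where 5703 of all 15341 genes were called higher and 2115 lower.

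**Figure D2:**
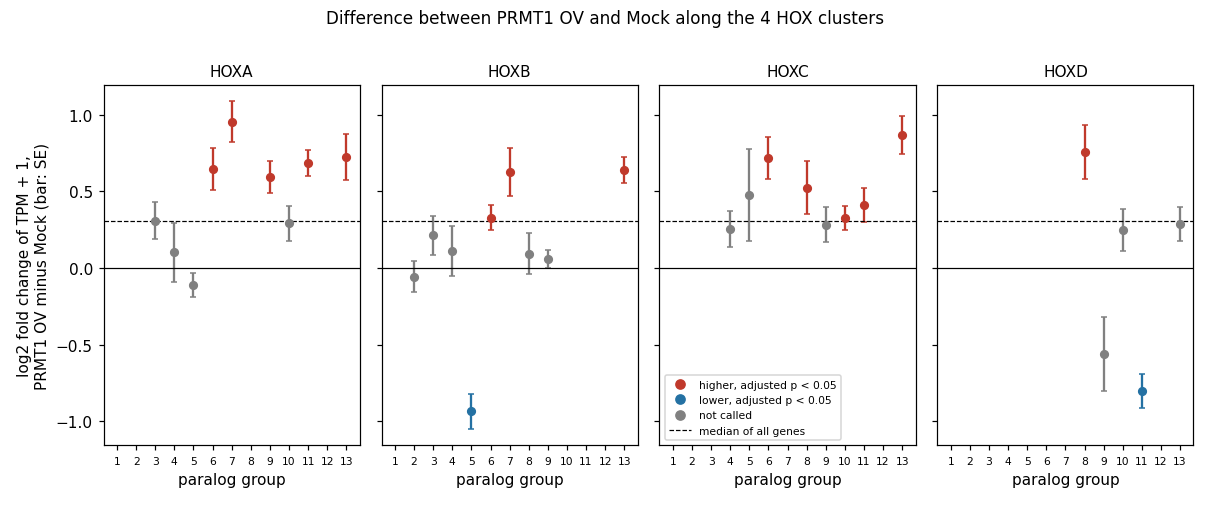
Log2 fold change, PRMT1 OV minus Mock, on log2(TPM + 1) with its limma standard error for 31 of the 32 tested HOX genes, in cluster order; the dashed line is the median of all tested genes at 0.30. HOXB5 and HOXD11 lie furthest below the line and HOXA7 furthest above it; after median-of-ratios scaling, which puts the median of all genes at 0.006, 12 of these genes change sign.

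HOXA7, HOXA11 and HOXC13 rose. HOXA7 (ENSG00000122592, GRCh38 chromosome 7, 27153716 to 27157936, minus strand, GENCODE 29) is an axial patterning gene that is also a common target of MLL fusions in leukaemia. Its level was 5.20, 5.66 and 4.87 TPM in PRMT1 OV libraries 1 to 3, against 1.92, 2.51 and 2.27 TPM in Mock libraries 1 to 3. No library of the 2 groups overlapped, and the means were 5.25 ± 0.397 TPM in PRMT1 OV and 2.23 ± 0.294 TPM in Mock (SD, n = 3 each). The log2 fold change was 0.95 ± 0.13 (SE), 0.65 above the median of all genes, with an adjusted p of 0.00118 in limma and 0.000577 to 0.014 over its alternatives. HOXA7 rested on 237 reads in PRMT1 OV and 97 reads in Mock. On the opposite strand HOXA-AS3 covers 62.5% of its exonic bases, and the strand setting of the counting is not given in the sources used here, so reads of the pair cannot be told apart. HOXA-AS3 itself had 1.84 ± 0.135 TPM in PRMT1 OV and 1.27 ± 0.0893 TPM in Mock (SD, n = 3 each) and was not called (adjusted p = 0.104 in limma).

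HOXA11 (ENSG00000005073, chromosome 7, 27181510 to 27185223, minus strand) patterns the forearm and, in mouse, the ureteric bud and kidney mesenchyme. It stood at 41.9, 46.5 and 42.1 TPM in PRMT1 OV, against 27.8, 25.2 and 27.1 TPM in Mock. The means were 43.5 ± 2.58 TPM in PRMT1 OV and 26.7 ± 1.37 TPM in Mock (SD, n = 3 each). The groups lay far apart, with a log2 fold change of 0.68 ± 0.08 and an adjusted p of 0.000696 in limma (0.000252 to 0.0158 over its alternatives). Of the exonic bases of HOXA11, 31.1% are shared with HOXA11-AS on the opposite strand, and reads of this pair cannot be told apart there either. HOXA11-AS averaged 25.28 TPM in PRMT1 OV and 18.63 TPM in Mock and was itself called higher in TPM. Its part in the rise of HOXA11 was not tested.

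HOXC13 (ENSG00000123364, chromosome 12, 53938765 to 53946544, plus strand) is the most 5′ gene of its cluster and drives keratin genes of hair and nail. Its values were 25.4, 24.2 and 27.9 TPM in PRMT1 OV and 13.4, 16.1 and 11.8 TPM in Mock, again without overlap. The means were 25.8 ± 1.86 TPM in PRMT1 OV and 13.8 ± 2.17 TPM in Mock (SD, n = 3 each). The log2 fold change was 0.87 ± 0.12 and the adjusted p was 0.00129 in limma (0.000635 to 0.0119 over its alternatives). HOXC13 shares 7.10% of its exonic bases with HOXC13-AS on the opposite strand, where reads of the pair cannot be told apart. HOXC13-AS averaged 4.15 TPM in PRMT1 OV and 0.47 TPM in Mock. After median-of-ratios scaling the changes of HOXA7, HOXA11 and HOXC13 were 0.68, 0.34 and 0.53.

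HOXB5 and HOXD11 fell. HOXB5 (ENSG00000120075, chromosome 17, 48591257 to 48593961, minus strand) takes part in vagal neural crest and lung development. It had 8.39, 7.75 and 10.05 TPM in PRMT1 OV, against 17.4, 16.7 and 18.4 TPM in Mock. Every PRMT1 OV value was well under every Mock value, and the means of 8.73 ± 1.18 TPM in PRMT1 OV and 17.5 ± 0.855 TPM in Mock gave a ratio of 0.50 (SD, n = 3 each). The log2 fold change was -0.93 ± 0.12, with an adjusted p of 0.000697 in limma (0.000289 to 0.00466 over its alternatives), on 331 reads in PRMT1 OV and 646 in Mock. HOXB5 shares 3.58% of its exonic bases with HOXB-AS3, which was not called.

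HOXD11 (ENSG00000128713, chromosome 2, 176104216 to 176109754, plus strand) works with HOXA11 in the mouse kidney and forearm. Its level was 31.1, 27.5 and 23.6 TPM in PRMT1 OV and 46.5, 46.7 and 51.5 TPM in Mock, the reverse of its paralog HOXA11. The means were 27.4 ± 3.75 TPM in PRMT1 OV and 48.2 ± 2.86 TPM in Mock (SD, n = 3 each), and the ratio of means was 0.57. The log2 fold change was -0.80 ± 0.11 with an adjusted p of 0.00117 in limma (0.000528 to 0.00646 over its alternatives). HOXD11 shares 21.4% of its exonic bases with HOXD10 on the same strand, and HOXD10 was not called. Its transcript has the highest GC content of the tested HOX genes, 65.4%. In TPM HOXD11 lay 1.10 below the median of all genes on the log2 scale, and its change was -1.15 after median-of-ratios scaling. With the GC correction its change was -0.89, where the median of all genes was -0.03. The fall relative to all genes was therefore smaller with that correction, and the call was kept.

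**Figure D3:**
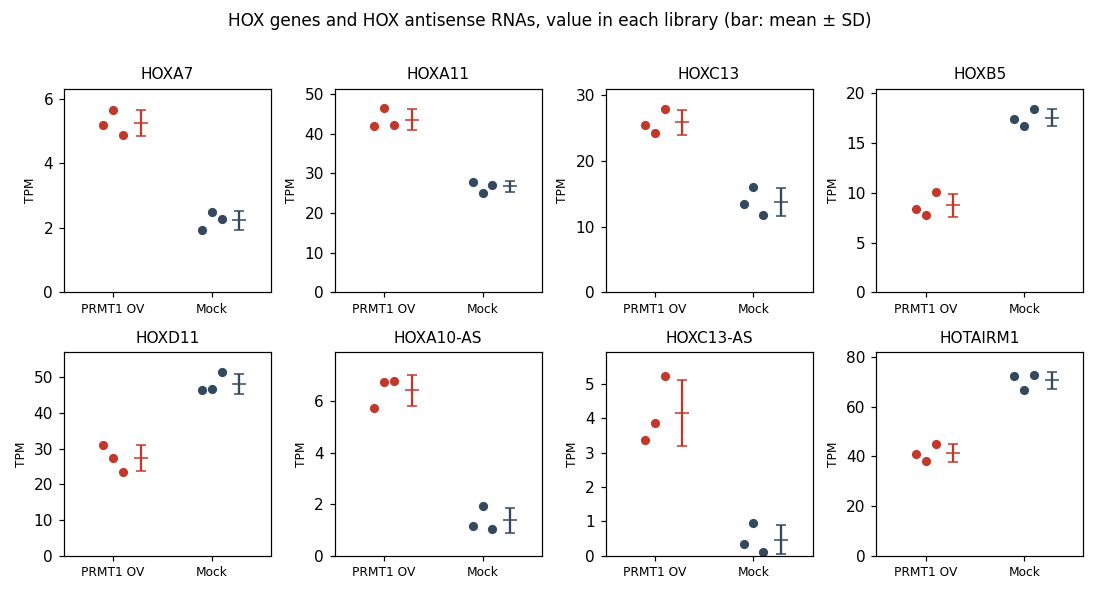
TPM per library with mean and SD (n = 3 per group) for the 5 HOX genes whose calls held in TPM and in all 4 rescalings and for 3 noncoding RNAs of the clusters, of which HOXC13-AS passed the filter on low values only through its PRMT1 OV libraries. PRMT1 OV points lie above all Mock points for HOXA7, HOXA11, HOXC13, HOXA10-AS and HOXC13-AS, and below all Mock points for HOXB5, HOXD11 and HOTAIRM1.

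Of the 5 genes, RefSeq's promoter table (GRCh38.p14) held HOXA7, HOXA11 and HOXD11. The 250 bases before each RefSeq start are shown, since these genes went in opposite directions in the same cells. Capitals mark a match to CCAAT or to TGATNNAT, the letters searched for joint binding by PBX and HOX proteins, on either strand. The windows are chr7:27156676-27156925 on the minus strand for HOXA7, chr7:27185233-27185482 on the minus strand for HOXA11 and chr2:176107030-176107279 on the plus strand for HOXD11.
HOXA7: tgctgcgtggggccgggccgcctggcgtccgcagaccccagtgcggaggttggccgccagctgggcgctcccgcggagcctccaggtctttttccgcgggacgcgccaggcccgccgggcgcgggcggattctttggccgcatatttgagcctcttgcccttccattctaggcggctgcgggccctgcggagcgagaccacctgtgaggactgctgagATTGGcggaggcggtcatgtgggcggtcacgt
HOXA11: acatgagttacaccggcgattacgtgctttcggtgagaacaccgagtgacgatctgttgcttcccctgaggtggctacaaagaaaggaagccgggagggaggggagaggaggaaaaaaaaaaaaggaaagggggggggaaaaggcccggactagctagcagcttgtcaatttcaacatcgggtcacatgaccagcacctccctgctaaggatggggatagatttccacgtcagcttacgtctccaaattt
HOXD11: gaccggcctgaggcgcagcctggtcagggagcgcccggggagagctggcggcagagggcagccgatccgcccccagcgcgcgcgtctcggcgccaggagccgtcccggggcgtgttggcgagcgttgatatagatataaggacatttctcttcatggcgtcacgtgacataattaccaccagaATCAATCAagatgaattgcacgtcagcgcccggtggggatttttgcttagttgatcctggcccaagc
The RefSeq start of HOXA7 lies 1261 bases, and that of HOXD11 3064 bases, inside the gene as GENCODE 29 draws it, so other starts are annotated upstream. HOXA7 holds 1 CCAAT match, HOXD11 holds 1 TGATNNAT match, and HOXA11 holds neither. A match describes the letters only. The table held promoters of 20 HOX genes, of which 14 were tested, and the untested HOXB1 alone stood for HOXB. Among these 20, 17 held CCAAT, 3 held TGATNNAT, 2 held TGACAG (the MEIS motif), 4 held TATAAA and 5 held CCCGCCC (an SP/KLF motif). Besides HOXD11, the promoters with TGATNNAT were those of HOXA2 and HOXB1, which were not tested. Over all 27303 promoters of that length the shares were 33.0% for CCAAT, 6.69% for TGATNNAT, 13.1% for TGACAG, 11.1% for TATAAA and 31.4% for CCCGCCC, each on both strands. The HOX promoters without CCAAT were those of HOXA11, HOXD8 and HOXD11, of which HOXA11 and HOXD8 rose and HOXD11 fell in TPM. HOXC4 and HOXC5 share a window in this table and each count. CpG pairs per window numbered 20.5 at the median of HOX promoters, with a range of 4 to 40, against a median of 11 over all promoters.

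Ratios of 2 genes within a library are not altered by a scaling factor for that library. They were taken for HOXB5 and HOXD11 after their values were seen, so they carry no test. HOXB5 was at 0.30 ± 0.041 of the level of its neighbour HOXB6 in PRMT1 OV and at 0.76 ± 0.049 in Mock (SD, n = 3 each). Against its paralog HOXA5 the ratio was 0.12 ± 0.025 in PRMT1 OV and 0.22 ± 0.013 in Mock, and against HOXB4 it was 1.68 ± 0.44 in PRMT1 OV and 3.64 ± 0.61 in Mock. The balance within paralog group 11 was turned round. HOXD11 had 0.63 ± 0.097 of the TPM of HOXA11 in PRMT1 OV and 1.81 ± 0.12 times its TPM in Mock. HOXD11 was also at 2.00 ± 0.30 times HOXC11 in PRMT1 OV and 4.78 ± 0.28 times in Mock. The summed TPM of group 11 was 84.7 ± 4.06 in PRMT1 OV and 85.0 ± 4.47 in Mock, although its members moved apart. Unlike the ratios, this sum depends on the scaling, and in TPM the median log2 fold change of all genes was 0.30. After median-of-ratios scaling HOXD11 was at -1.15, HOXA11 at 0.34 and HOXC11 at 0.08, so the near-equal sums hold for TPM only. Within the HOXD cluster, HOXD11 stood at 0.22 ± 0.034 of HOXD13 in PRMT1 OV and 0.48 ± 0.11 in Mock, and at 2.41 ± 0.48 times HOXD10 in PRMT1 OV and 5.17 ± 1.078 times in Mock. None of the 7 ratios overlapped between the groups. The values of HOXB5 and HOXD11 did not overlap to begin with, so this count adds no support.

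**Figure D4:**
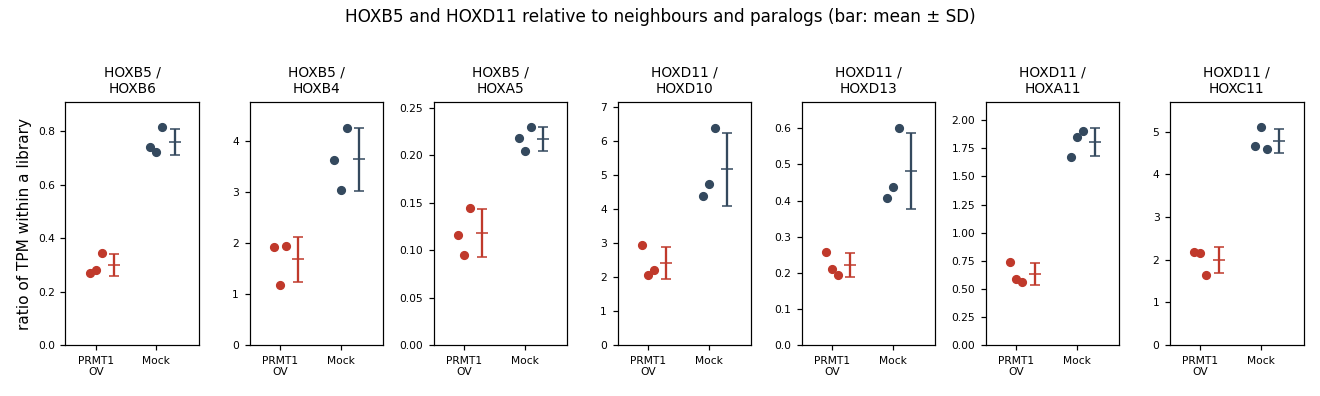
Ratio of TPM between 2 HOX genes of the same library, with mean and SD (n = 3 per group), for HOXB5 and HOXD11 over neighbours and paralogs. All 7 ratios are lower in every PRMT1 OV library than in any Mock library, for genes taken after their own values were seen to be lower.

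In HOXA, 6 of 10 tested genes were called higher and 0 lower, against 40.3% and 8.64% of all genes. These counts were 4 and 1 after median-of-ratios scaling (23.5% and 24.1% of all genes). They were 3 and 1 after quantile normalization (20.3% and 19.4% of all genes) and 5 and 1 after GC correction (23.2% and 26.1%). Removal of PRMT1 gave 8 and 0 (49.1% and 5.68% of all genes). The cluster summed to 259 ± 23.9 TPM in PRMT1 OV and 204.5 ± 4.27 TPM in Mock (SD, n = 3 each), a difference of 54.4 TPM that turned to -3.59 after median-of-ratios scaling. HOXA13, which patterns digits and the urogenital tract, had 17.99, 23.97 and 16.9 TPM in PRMT1 OV and 12.7, 10.2 and 11.1 TPM in Mock (log2 fold change 0.73 ± 0.15, limma adjusted p = 0.00565). HOXA9, a regulator of blood progenitors, had 44.5, 42.5 and 41.8 TPM in PRMT1 OV and 31.2, 29.1 and 24.5 TPM in Mock (0.59 ± 0.10, limma adjusted p = 0.00275). HOXA6, an axial gene that shares 40.1% of its exons with other genes, had 9.64, 13.4 and 11.2 TPM in PRMT1 OV and 7.46, 6.53 and 6.64 TPM in Mock (0.65 ± 0.13, limma adjusted p = 0.00606). The groups did not overlap for these 3 genes. Their calls were lost in at least 1 rescaling, with adjusted p-values up to 0.0744 for HOXA13, 0.0579 for HOXA9 and 0.179 for HOXA6 over all alternatives.

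HOXA5, a lung and shoulder patterning gene, was the highest of its cluster and was not called. It had 72.5, 82.2 and 69.6 TPM in PRMT1 OV, against 80.1, 81.7 and 80.1 TPM in Mock, with overlapping groups (-0.11 ± 0.08, limma adjusted p = 0.291). Relative to the bulk of genes HOXA5 was lower: after median-of-ratios scaling its log2 change was -0.46 (adjusted p = 0.00206). HOXA10, a gene of uterus and posterior axis, had 34.7, 39.6 and 29.4 TPM in PRMT1 OV and 27.1, 28.3 and 28.2 TPM in Mock (0.29 ± 0.11, limma adjusted p = 0.0667, and 0.0213 without PRMT1 OV 3). HOXA3, needed for thymus and parathyroid, had 4.23, 3.93 and 4.56 TPM in PRMT1 OV and 3.12, 3.16 and 3.41 TPM in Mock (0.31 ± 0.12, limma adjusted p = 0.0678). For both, PRMT1 OV values lay above Mock values by about the shift of all genes. HOXA4, an axial gene, had 8.58, 11.01 and 5.92 TPM in PRMT1 OV and 7.31, 7.59 and 8.01 TPM in Mock (0.10 ± 0.19, limma adjusted p = 0.682), with PRMT1 OV 2 the highest and PRMT1 OV 3 the lowest library. Without PRMT1 OV 2 its change was -0.08.

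In HOXB, 3 of 9 tested genes were called higher and 1, HOXB5, lower (40.3% and 8.64% of all genes). The balance turned with the scaling. It was 1 higher and 3 lower after median-of-ratios scaling (23.5% and 24.1% of all genes) and after GC correction (23.2% and 26.1%). After quantile normalization it was 0 higher and 3 lower (20.3% and 19.4% of all genes). Removal of PRMT1 gave 4 higher and 1 lower (49.1% and 5.68% of all genes). The cluster summed to 290.2 ± 1.02 TPM in PRMT1 OV and 266 ± 6.59 TPM in Mock (SD, n = 3 each). That difference of 23.9 TPM turned to -45.2 after median-of-ratios scaling and to -5.20 after quantile normalization. HOXB13, a prostate and tail gene set apart from the rest of its cluster by a long gap, had 18.4, 19.3 and 19.8 TPM in PRMT1 OV and 12.3, 11.9 and 11.8 TPM in Mock (0.64 ± 0.09, limma adjusted p = 0.000996). It shares no exonic base with another gene, and its call was lost only after quantile normalization (adjusted p = 0.0587). HOXB7, whose mouse promoter is active in the ureteric bud, had 30.7, 34.8 and 24.7 TPM in PRMT1 OV and 17.2, 17.2 and 22.9 TPM in Mock (0.63 ± 0.16, limma adjusted p = 0.0133, and up to 0.243 over its alternatives). HOXB6, expressed in early blood and mesoderm, had 31.3, 27.5 and 29.1 TPM in PRMT1 OV and 23.6, 23.1 and 22.6 TPM in Mock (0.33 ± 0.08, limma adjusted p = 0.0142). Its rise was that of the bulk of genes: median-of-ratios scaling put it at -0.02, and without PRMT1 OV 1 its adjusted p was 0.0686. HOXB5 and HOXB6 were the 1 pair of adjacent tested HOX genes, of 28, called in opposite directions. Both members were called higher in 7 pairs and both lower in 0. With 15 of the 32 tested HOX genes called higher, pairs of this kind also arise when neighbours move independently. No share of such pairs over all genes was taken, so the counts do not show that neighbours moved together.

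HOXB9, a thoracic patterning gene, was the highest HOX gene, at 156, 155 and 158 TPM in PRMT1 OV and 147, 152 and 150.5 TPM in Mock (0.06 ± 0.06, limma adjusted p = 0.41). The groups did not overlap but differed by a ratio of only 1.044, and the call depended on the scaling. HOXB9 was called lower after median-of-ratios scaling (-0.29, limma adjusted p = 0.0278) and after GC correction (-0.20, adjusted p = 0.0182), and higher with PRMT1 removed (0.17, adjusted p = 0.0409). HOXB8, active in mouse in the lineage of some microglia, had 15.7, 16.8 and 20.1 TPM in PRMT1 OV and 14.3, 16.2 and 18.6 TPM in Mock (0.09 ± 0.13, limma adjusted p = 0.572). HOXB2, a hindbrain gene, had 20.3, 16.9 and 20.5 TPM in PRMT1 OV and 19.8, 20.7 and 19.4 TPM in Mock (-0.06 ± 0.10, limma adjusted p = 0.668). Both overlapped between groups. HOXB2 was called lower after median-of-ratios scaling (-0.40, adjusted p = 0.0343), after quantile normalization and after GC correction. HOXB3, a hindbrain and pharyngeal gene, had 4.16, 4.45 and 4.23 TPM in PRMT1 OV and 3.17, 3.49 and 4.05 TPM in Mock (0.21 ± 0.13, limma adjusted p = 0.2). HOXB4, known for expanding blood stem cells, had 4.36, 6.61 and 5.18 TPM in PRMT1 OV and 4.80, 5.49 and 4.32 TPM in Mock (0.11 ± 0.16, limma adjusted p = 0.596). Both turned negative after median-of-ratios scaling, at -0.07 for HOXB3 and -0.19 for HOXB4.

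In HOXC, 5 of 8 tested genes were called higher and 0 lower, against 40.3% and 8.64% of all genes. Only 1 was higher, with 0 lower, after median-of-ratios scaling (23.5% and 24.1% of all genes). The same counts held after quantile normalization (20.3% and 19.4% of all genes) and after GC correction (23.2% and 26.1%). Removal of PRMT1 gave 7 higher and 0 lower (49.1% and 5.68% of all genes). The cluster had the largest ratio of summed TPM of the 4, 1.38, with 146 ± 4.97 TPM in PRMT1 OV and 106 ± 2.91 TPM in Mock (SD, n = 3 each). HOXC6, an upper thoracic gene, had 13.4, 14.3 and 14.2 TPM in PRMT1 OV and 7.17, 7.35 and 10.1 TPM in Mock (0.72 ± 0.14, limma adjusted p = 0.00413). HOXC10, a lumbar gene, had 41.9, 39.3 and 40.9 TPM in PRMT1 OV and 30.9, 32.2 and 33.7 TPM in Mock (0.33 ± 0.08, limma adjusted p = 0.01). HOXC11, which belongs to the kidney group of paralogs, had 14.2, 12.8 and 14.3 TPM in PRMT1 OV and 9.98, 9.15 and 11.2 TPM in Mock (0.41 ± 0.11, limma adjusted p = 0.0163). For these 3 the groups did not overlap. All 3 lost the call after median-of-ratios scaling, quantile normalization and GC correction, and HOXC10 reached -0.02 in the first and HOXC11 -0.0045 in the second. HOXC11 also lost it without Mock 1 or 2 (adjusted p = 0.0538 and 0.0567) or PRMT1 OV 1 or 3 (0.0629 and 0.0552). HOXC8, a brachial motor neuron gene, had 6.40, 4.93 and 4.64 TPM in PRMT1 OV and 4.31, 3.02 and 2.89 TPM in Mock (0.52 ± 0.17, limma adjusted p = 0.0382). Leaving out Mock 2 or 3 (adjusted p = 0.103 and 0.0970) or PRMT1 OV 1 or 2 (0.129 and 0.0643) removed that call. It was also lost after median-of-ratios scaling (0.24, limma adjusted p = 0.277), quantile normalization (0.06, adjusted p = 0.785) and GC correction (0.20, adjusted p = 0.355), and without the filter on low values (adjusted p = 0.0965).

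The other 3 tested HOXC genes were not called. HOXC4, a cervical gene also used in B cells, had 25.3, 27.3 and 27.3 TPM in PRMT1 OV and 20.7, 26.2 and 19.9 TPM in Mock (0.26 ± 0.12, limma adjusted p = 0.103, and 0.0248 without Mock 2). HOXC9, a thoracic motor neuron gene, had 18.1, 16.3 and 19.7 TPM in PRMT1 OV and 14.7, 13.1 and 16.2 TPM in Mock (0.28 ± 0.11, limma adjusted p = 0.0744, and 0.0427 without Mock 3). The values of HOXC9 did not overlap, yet they stood apart by no more than the bulk of genes did, and both genes turned negative after median-of-ratios scaling (-0.09 for HOXC4 and -0.05 for HOXC9). HOXC5, an axial gene at the detection limit, had 1.69, 1.12 and 1.46 TPM in PRMT1 OV and 0.973, 0.0929 and 1.42 TPM in Mock, where Mock 2 held 1 read (0.48 ± 0.30, limma adjusted p = 0.224).

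In HOXD, 1 of 5 tested genes was called higher and 1, HOXD11, lower (40.3% and 8.64% of all genes). After median-of-ratios scaling 1 was higher and 2 lower (23.5% and 24.1% of all genes). After quantile normalization 0 were higher and 2 lower (20.3% and 19.4% of all genes). GC correction gave 1 and 2 (23.2% and 26.1% of all genes), and removal of PRMT1 gave 2 and 1 (49.1% and 5.68% of all genes). The cluster sum was 177 ± 8.82 TPM in PRMT1 OV and 172 ± 11.9 TPM in Mock (SD, n = 3 each). The difference of 5.26 TPM turned to -37.8 after median-of-ratios scaling and to -11.04 after quantile normalization. HOXD8, an axial gene, had 9.08, 10.7 and 7.13 TPM in PRMT1 OV and 3.89, 5.68 and 5.06 TPM in Mock without overlap (0.76 ± 0.18, limma adjusted p = 0.00944), and the call was lost after quantile normalization (adjusted p = 0.168). Its neighbour HOXD9, a limb and lumbar gene, had 4.66, 2.57 and 4.31 TPM in PRMT1 OV and 6.15, 4.40 and 7.94 TPM in Mock (-0.56 ± 0.24, limma adjusted p = 0.0857). Its groups overlapped through Mock 2 and PRMT1 OV 1. Without Mock 2 HOXD9 was called lower (-0.75, adjusted p = 0.0390), as it was after median-of-ratios scaling (-0.85, adjusted p = 0.0342). HOXD13, which patterns the digits and whose expanded alanine tract causes synpolydactyly, had 120.2, 130.5 and 122 TPM in PRMT1 OV and 114, 107 and 85.6 TPM in Mock (0.29 ± 0.11, limma adjusted p = 0.064, and 0.0406 without Mock 1). HOXD10, a lumbar motor neuron gene, had 10.5, 13.3 and 10.7 TPM in PRMT1 OV and 10.6, 9.85 and 8.05 TPM in Mock (0.25 ± 0.14, limma adjusted p = 0.169). HOXD13 and HOXD10 both turned negative after median-of-ratios scaling, at -0.07 and -0.08.

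Of the 32 tested genes, 10 share no exonic base with another gene, of which 5 were called higher and 0 lower. Among the 22 that do share bases, 10 were called higher and 2 lower. The shares of all genes were 40.3% and 8.64%. After median-of-ratios scaling 2 of the 10 were higher and 3 lower, and 5 of the 22 were higher and 3 lower (23.5% and 24.1% of all genes). Per group, the summed TPM ratio was highest in group 7, at 1.65, with 35.3 ± 5.50 TPM in PRMT1 OV and 21.4 ± 3.31 TPM in Mock, and lowest in group 5, at 0.86, with 84.9 ± 5.39 TPM in PRMT1 OV and 99.0 ± 0.81 TPM in Mock (SD, n = 3 each).

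The clusters also encode noncoding RNAs, many of them antisense to HOX genes. Of 23 listed, 15 were tested, 4 were called higher and 2 lower (40.3% and 8.64% of all genes), with a median log2 fold change of 0.23 against 0.30 for all genes. After median-of-ratios scaling and after quantile normalization the counts were 2 higher and 4 lower, where 23.5% and 24.1% of all genes were called in the first and 20.3% and 19.4% in the second. HOTAIRM1, a HOXA transcript studied in myeloid cells, had 40.9, 38.3 and 45.1 TPM in PRMT1 OV and 72.6, 66.7 and 72.9 TPM in Mock. No libraries overlapped, and the log2 fold change was -0.76 ± 0.09 (limma adjusted p = 0.00051). HOXA10-AS, antisense to HOXA9 and HOXA10, had 5.73, 6.75 and 6.78 TPM in PRMT1 OV and 1.16, 1.93 and 1.03 TPM in Mock (1.66 ± 0.17, limma adjusted p = 0.000367). It shares 62.3% of its exons with HOXA9 and HOXA10. HOTAIRM1 and HOXA10-AS kept their calls in every alternative that could test them. HOXC13-AS had 3.37, 3.86 and 5.23 TPM in PRMT1 OV and 0.340, 0.953 and 0.121 TPM in Mock, on 108 reads in PRMT1 OV and 12 in Mock. It shares 12.2% of its exonic bases with HOXC13. Since all its Mock values were under 1 TPM, HOXC13-AS passed the filter only through the group where it was high, so no weight is put on its call, which is counted among the 4.

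The other 3 noncoding calls were less stable. HOXA11-AS had 29.3, 22.97 and 23.6 TPM in PRMT1 OV and 18.01, 19.2 and 18.7 TPM in Mock (0.41 ± 0.11, limma adjusted p = 0.017). HAGLR, antisense in the HOXD cluster, had 8.26, 7.10 and 5.85 TPM in PRMT1 OV and 4.91, 3.87 and 4.89 TPM in Mock (0.53 ± 0.15, limma adjusted p = 0.0216). HOXA-AS2 had 2.52, 2.38 and 2.12 TPM in PRMT1 OV and 3.36, 3.11 and 3.68 TPM in Mock (-0.39 ± 0.13, limma adjusted p = 0.042). HOXA11-AS lost its call without Mock 1 or PRMT1 OV 1, HAGLR without Mock 2, PRMT1 OV 1 or PRMT1 OV 2, and HOXA-AS2 without any 1 of the 6 libraries. Over all alternatives their adjusted p reached 0.685, 0.767 and 0.118, and HOXA11-AS and HAGLR lost the call after 3 of the 4 rescalings. Among the 9 that were not called, HOXB-AS3 had 13.8, 9.65 and 10.7 TPM in PRMT1 OV and 7.01, 5.35 and 9.81 TPM in Mock (0.58 ± 0.21, limma adjusted p = 0.052). HOXC-AS1 had 9.04, 4.72 and 6.81 TPM in PRMT1 OV and 9.17, 15.6 and 10.1 TPM in Mock (-0.69 ± 0.25, limma adjusted p = 0.0521). HOTAIR, the HOXC transcript known for binding Polycomb complexes, had 3.64, 4.71 and 3.77 TPM in PRMT1 OV and 2.52, 3.48 and 4.00 TPM in Mock (0.23 ± 0.17, limma adjusted p = 0.3). The remaining 6, HOXA-AS3, HOXB-AS1, HOXB-AS4, HOXC-AS2, HOXD-AS2 and MIR196A1, had log2 fold changes of -0.26 to 0.32. MIR196A1 rested on 7 reads in each group. A polyA library does not measure mature microRNA, so no sequence is shown for it.

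HOX proteins bind DNA with partners of the TALE class, the PBX, MEIS and PKNOX homeodomain proteins. Of 9 such genes 8 were tested, of which 5 were called higher and 1 lower (40.3% and 8.64% of all genes), with a median log2 fold change of 0.65 against 0.30 for all genes. After median-of-ratios scaling 5 were higher and 2 lower (23.5% and 24.1% of all genes), and after GC correction 3 and 2 (23.2% and 26.1%). PBX4 had 7.43, 8.02 and 8.79 TPM in PRMT1 OV and 3.63, 3.94 and 4.01 TPM in Mock (0.90 ± 0.11, limma adjusted p = 0.000798), and it kept its call in every alternative that could test it. MEIS2 averaged 3.61 ± 0.170 TPM in PRMT1 OV and 1.68 ± 0.206 TPM in Mock (0.79 ± 0.14, limma adjusted p = 0.00279). PKNOX1 averaged 4.58 ± 0.584 TPM in PRMT1 OV and 2.43 ± 0.0922 TPM in Mock (0.70 ± 0.13, limma adjusted p = 0.00416). The calls of MEIS2, PKNOX1 and PKNOX2 were lost after quantile normalization, which left 1 higher and 2 lower of the 8 (20.3% and 19.4% of all genes). PKNOX2 averaged 6.82 ± 0.826 TPM in PRMT1 OV and 3.80 ± 0.699 TPM in Mock (0.71 ± 0.15, limma adjusted p = 0.00685). MEIS3 averaged 23.7 ± 1.42 TPM in PRMT1 OV and 29.002 ± 1.72 TPM in Mock (-0.28 ± 0.09, limma adjusted p = 0.0316), a call lost without any 1 library but Mock 2 (adjusted p up to 0.129 over all alternatives). PBX2, the most abundant of them in TPM, averaged 80.2 ± 4.47 TPM in PRMT1 OV and 90.6 ± 2.29 TPM in Mock (-0.18 ± 0.07, limma adjusted p = 0.0743), and PBX3 averaged 12.5 ± 1.38 TPM in PRMT1 OV and 10.1 ± 0.513 TPM in Mock (0.28 ± 0.11, limma adjusted p = 0.0672). MEIS1 was not tested, at 0.937, 1.31 and 1.11 TPM in PRMT1 OV and 0.482, 0.614 and 0.187 TPM in Mock.

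Of the MLL, trithorax and H3K27 demethylase genes, which keep HOX clusters active, all 21 were tested, 15 were called higher (71.4%, against 40.3% of all genes) and 0 lower (against 8.64%), with a median log2 fold change of 0.52 against 0.30 for all genes. After median-of-ratios scaling 8 were higher (38.1%, against 23.5%) and 2 lower (9.52%, against 24.1%). After quantile normalization 6 were higher (28.6%, against 20.3%) and 1 lower (4.76%, against 19.4%). ASH2L, a core subunit of the MLL complexes, averaged 38.8 ± 2.93 TPM in PRMT1 OV and 19.7 ± 2.08 TPM in Mock (0.95 ± 0.11, limma adjusted p = 0.000452). WDR5, another core subunit, averaged 53.8 ± 3.25 TPM in PRMT1 OV and 35.3 ± 2.22 TPM in Mock (0.59 ± 0.09, limma adjusted p = 0.00129). PAXIP1 averaged 7.51 ± 1.10 TPM in PRMT1 OV and 2.93 ± 0.202 TPM in Mock (1.11 ± 0.14, limma adjusted p = 0.000668). KDM6A, which removes the methyl mark that Polycomb places, averaged 15.9 ± 1.94 TPM in PRMT1 OV and 5.12 ± 1.58 TPM in Mock (1.49 ± 0.21, limma adjusted p = 0.00109). Each of these 4 kept its call in every alternative that could test it.

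Of the Polycomb genes, which silence HOX clusters, 31 of 32 were tested, 15 were called higher (48.4%, against 40.3% of all genes) and 2 lower (6.45%, against 8.64%), with a median of 0.26. After median-of-ratios scaling 8 were higher (25.8%, against 23.5%) and 10 lower (32.3%, against 24.1%). The shares in those settings were near the background. After GC correction 7 were higher (22.6%, against 23.2%) and 12 lower (38.7%, against 26.1%). RING1, an E3 ligase of PRC1, averaged 74.1 ± 2.65 TPM in PRMT1 OV and 42.1 ± 2.15 TPM in Mock (0.80 ± 0.08, limma adjusted p = 0.000253). EZH2, the methyltransferase of PRC2, averaged 46.1 ± 3.69 TPM in PRMT1 OV and 25.3 ± 1.00 TPM in Mock (0.84 ± 0.09, limma adjusted p = 0.000361). Both kept their calls in every alternative. PCGF6, of a variant PRC1, averaged 60.7 ± 5.47 TPM in PRMT1 OV and 39.6 ± 1.59 TPM in Mock (0.60 ± 0.09, limma adjusted p = 0.00149), and JARID2, a PRC2 partner, averaged 17.9 ± 0.535 TPM in PRMT1 OV and 11.2 ± 0.967 TPM in Mock (0.63 ± 0.10, limma adjusted p = 0.00167). The call was lost after GC correction for PCGF6 and after quantile normalization for JARID2. These are RNA levels and do not measure the complexes.

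Among regulators upstream of HOX clusters (retinoid receptors and binding proteins, caudal genes, cohesin and others), 16 of 21 were tested, 8 were called higher (50%, against 40.3% of all genes) and 1 lower (6.25%, against 8.64%), with a median of 0.35. After median-of-ratios scaling 3 were higher (18.75%, against 23.5%) and 5 lower (31.25%, against 24.1%). The shares in those settings were also near the background. After quantile normalization 4 were higher (25%, against 20.3%) and 6 lower (37.5%, against 19.4%). CDX2, a caudal factor that activates central HOX genes, had 20.002, 19.5 and 21.3 TPM in PRMT1 OV and 8.41, 8.55 and 8.61 TPM in Mock (1.16 ± 0.09, limma adjusted p = 0.000131). GMNN, geminin, an inhibitor of replication licensing that also binds HOX proteins, had 126, 140.4 and 122 TPM in PRMT1 OV and 46.3, 48.2 and 41.5 TPM in Mock (1.49 ± 0.09, limma adjusted p = 6.99e-05). CRABP2, which carries retinoic acid to its receptors, had 815, 775 and 883 TPM in PRMT1 OV and 1197, 1239.8 and 1525 TPM in Mock (-0.67 ± 0.10, limma adjusted p = 0.00149). The first pair rose and CRABP2 fell in every alternative. RARA, a retinoic acid receptor, averaged 17.7 ± 1.22 TPM in PRMT1 OV and 11.3 ± 0.569 TPM in Mock (0.61 ± 0.10, limma adjusted p = 0.00188), a call lost after median-of-ratios scaling.

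Genes that flank the clusters were called in both directions. Of 28, 22 were tested, 3 were called higher (13.6%, against 40.3% of all genes) and 4 lower (18.2%, against 8.64%), with a median of 0.08 against 0.30 for all genes. After median-of-ratios scaling 3 were higher and 11 lower (23.5% and 24.1% of all genes), with a median of -0.26, and after GC correction 3 and 14 (23.2% and 26.1% of all genes). The lower calls depended on the scaling. Quantile normalization gave 3 higher and 5 lower (20.3% and 19.4% of all genes), and removal of PRMT1 gave 6 and 3 (49.1% and 5.68% of all genes). HNRNPA1, a splicing factor beside HOXC, averaged 2129.5 ± 109.7 TPM in PRMT1 OV and 3039 ± 67.5 TPM in Mock (-0.51 ± 0.06, limma adjusted p = 0.000444). It has many near-identical pseudogenes, so its reads are uncertain. ATP5MC1, an ATP synthase subunit beside HOXB, averaged 148 ± 10.2 TPM in PRMT1 OV and 215 ± 4.36 TPM in Mock (-0.54 ± 0.07, limma adjusted p = 0.000952). SMUG1, a DNA repair glycosylase beside HOXC, averaged 14.4 ± 0.417 TPM in PRMT1 OV and 8.05 ± 0.508 TPM in Mock (0.77 ± 0.10, limma adjusted p = 0.000711). ATF2, a transcription factor beside HOXD, averaged 24.9 ± 3.87 TPM in PRMT1 OV and 15.01 ± 0.920 TPM in Mock (0.69 ± 0.12, limma adjusted p = 0.00314).

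Of 13 homeobox genes related to HOX, 5 were tested and 3 were called higher, with 0 lower (40.3% and 8.64% of all genes). After median-of-ratios scaling (23.5% and 24.1% of all genes) and after quantile normalization (20.3% and 19.4%) 3 were higher and 1 lower. Besides CDX2 these were PDX1, a pancreas and duodenum factor, and GBX1, a neural gene. PDX1 had 2.51, 3.04 and 2.80 TPM in PRMT1 OV, against 0.192, 0.134 and 0.0682 TPM in Mock, where all 3 libraries were near the limit of detection. It passed the filter only through its PRMT1 OV libraries, so no weight is put on its call, which is counted among the 3. GBX1 had 4.38, 4.76 and 3.47 TPM in PRMT1 OV and 1.52, 2.06 and 1.98 TPM in Mock (0.86 ± 0.16, limma adjusted p = 0.00354). MNX1 and GBX2, with log2 fold changes of 0.15 and 0.02, were not called.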

How the data were processed

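RNA of 6 HEK293T libraries was compared, 3 PRMT1 OV and 3 Mock, with groups and replicate numbers taken from the titles. The deposited values are TPM per Ensembl gene, computed by the authors. GRCh38, STAR 2.5.2b, Trimmomatic 0.36, Subread 1.5.2 and featureCounts are named in the submitters' processing notes. For annotation, strand setting and TPM calculation, details are not given in the sources used. Symbols came from a table of gene names, which held 40907 symbols for the 57500 identifiers. Coordinates, exonic lengths, overlaps and GC content came from GENCODE 29. Multiplied by exonic length, low values fell on whole reads (95.5 to 95.7% of values under 50 reads, within 0.05 of a read), which gave the depths and read counts.

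Genes that reached 1 TPM in 3 or more libraries were tested with limma 3.58.1 in R 4.3.3 on log2(TPM + 1), with a variance trend and no covariate. Adjustment over all genes tested followed Benjamini and Hochberg, and genes under 0.05 were called. The added 1 TPM shrinks the fold changes of low genes. All 6 libraries were kept. Replicates differed by more than counting noise (chi-square per degree of freedom 2.76 to 25.5), which does not show whether they were separate cultures. The HOX genes and every other list were chosen with earlier results of these data known. The rule for naming took the HOX genes, with library values for each tested one, the tested noncoding genes of the clusters and TALE genes, PRMT1, and up to 4 called genes with the smallest p from each other list. The alternatives were other pseudocounts, filters, scalings, a replicate block and libraries left out. Of the listed microRNA hosts, MIR10A and MIR196B were not analysed here. Single values of 1 HOX gene and 1 TALE gene are not reported here, although the counts and sums include them.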

Additional observations from a re-analysis of the deposited data

How the results depend on the processing

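Most HOX calls changed with the scaling. TPM placed the median of all genes at 0.30 and the other scalings placed it between -0.03 and 0.40. HOX genes called higher numbered 15 in TPM, 7 after median-of-ratios scaling, 4 after quantile normalization, and 8 after GC correction with or without the replicate block. HOX genes called lower numbered 2 in TPM and 6 in each of those 4 settings. Over all genes, 6190 higher calls in TPM became 3605, 3109, 3544 and 3177 in the same order of settings (the last with the block), and 1325 lower calls became 3692, 2979, 3983 and 3761. Removal of PRMT1 gave 880 lower calls, and leaving out Mock 3 with PRMT1 OV 2 gave 2115. With 1 library left out, HOX calls ranged from 11 to 15 higher and 2 to 3 lower, and calls over all genes from 5082 to 5634 higher and 935 to 1520 lower.

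The difference in summed TPM, PRMT1 OV minus Mock, was 54.4 for HOXA, 23.9 for HOXB, 40.3 for HOXC and 5.26 for HOXD. After median-of-ratios scaling it was -3.59, -45.2, 9.40 and -37.8, and after quantile normalization 13.02, -5.20, 9.73 and -11.0. Removal of PRMT1 gave 46.7 for HOXB, 51.8 for HOXC and 19.1 for HOXD. With 1 library left out it ranged from 41.3 to 64.7 for HOXA, 20.4 to 26.96 for HOXB, 38.0 to 42.9 for HOXC and -1.09 (without Mock 3) to 10.7 for HOXD.

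Log2 fold changes that turned sign after median-of-ratios scaling were those of HOXA4 (-0.22), HOXA10 (-0.056), HOXB3 (-0.073), HOXB4 (-0.19), HOXB6 (-0.016), HOXB8 (-0.24), HOXB9 (-0.29), HOXC4 (-0.088), HOXC9 (-0.055), HOXC10 (-0.022), HOXD10 (-0.077) and HOXD13 (-0.067). After quantile normalization they were those of HOXA3 (-0.14), HOXA4 (-0.35), HOXB3 (-0.24), HOXB4 (-0.36), HOXB8 (-0.28), HOXC4 (-0.059), HOXC9 (-0.095), HOXC11 (-0.0045) and HOXD10 (-0.19). After GC correction, with or without the replicate block, they were those of HOXA4 (-0.13), HOXB3 (-0.10), HOXB4 (-0.16), HOXB8 (-0.13), HOXB9 (-0.20), HOXC4 (-0.088), HOXD10 (-0.10) and HOXD13 (-0.049). Removal of PRMT1 turned HOXB2 (0.047). With 1 library left out, HOXA4 ranged from -0.084 (without PRMT1 OV 2) to 0.31, HOXB2 from -0.10 to 0.030 (without PRMT1 OV 2), HOXB4 from -0.024 (without PRMT1 OV 2) to 0.23, and HOXB8 from -0.0015 (without PRMT1 OV 3) to 0.18. Without both Mock 3 and PRMT1 OV 2, HOXA4 was at -0.053, HOXB2 at 0.012, HOXB4 at -0.094 and HOXB8 at 0.21. None of these changes was past the threshold in TPM except those of HOXB6, HOXC10 and HOXC11. Over the 32 genes and all alternatives, 416 values kept direction and side of the threshold, 48 lost the call, 29 gained one and 45 turned sign.

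Whether the replicate numbers pair the libraries could not be decided from the values. Deviations of same-numbered libraries 1 to 3 correlated at -0.0333, 0.0588 and 0.0201, and those of differently numbered ones at -0.0771 to 0.0685. PRMT1 OV 2 and 3 correlated best with the Mock library of their own number, and PRMT1 OV 1 with Mock 3. With 3 libraries per group, correlations this small neither show nor exclude a pairing. A fit with the replicate block called 16 HOX genes higher and 3 lower, and 6275 genes higher and 1314 lower over all genes. Pseudocounts of 0.1 and 5 TPM changed no HOX call. Without a filter, 2 HOX genes lost the call. For HOXA7, HOXC5 and other genes of low level, depth limits precision.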
